A study of Mus musculus with 3 samples.

Results

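Channels and pumps that move calcium across the membranes of a cell were measured in the aortas of mice heterozygous for Plk1, the gene of the mitotic kinase polo-like kinase 1, labelled Plk1(+/-). The set held every array probe whose gene name marks a voltage-gated calcium channel subunit (Cacna, Cacnb, Cacng), a canonical, melastatin or vanilloid TRP channel (Trpc, Trpm, Trpv), an inositol trisphosphate or ryanodine receptor (Itpr, Ryr), a store-operated entry protein (Orai, Stim) or a calcium pump (Atp2a, Atp2b), with Atp2a1 left out. This gave 129 of 41174 probes, for 64 of the 19505 genes with a current symbol on the array. Of these, 99 probes and 55 genes passed a filter on signal, for which 1 of the dyes had to be well above background on 2 or more of the 3 arrays. The comparison ran over 22170 features, each a gene at its brightest probe or a probe without a gene symbol.

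Every mouse was of strain 129/CD1 and 3-5 months old. Each of the 3 arrays carried RNA of 1 aorta sample labelled Plk1(+/-) in Cy5 and a pool of 3 wild-type aorta samples in Cy3. The dyes were never reversed, so dye and genotype cannot be told apart. The pool is 1 control sample, so the spread between wild-type aortas is not in any test, and all 3 arrays lay on 1 slide. Each value below is a log2 ratio of a Plk1(+/-) sample over the pool after loess normalization within the array, where 1 means 2-fold higher and 0 no difference. The values of samples 1, 2 and 3 are given in that order, and means stand with the SD over these 3 samples. Log2 ratios were tested against 0 with limma (two-sided), the p-values were adjusted over all features by the Benjamini-Hochberg method, and a gene counts as called at an adjusted p under 0.05.

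In vascular smooth muscle, depolarisation opens L-type calcium channels and calcium enters the cell, binds calmodulin and switches on the kinase that starts contraction. Receptors coupled to Gq add release from the sarcoplasmic reticulum through inositol trisphosphate receptors, and emptied stores are refilled after STIM proteins in the store membrane open ORAI channels in the plasma membrane. TRP channels carry mixed cation currents that depolarise the cell or bring in calcium, and the SERCA and PMCA pumps lower calcium again. Immune cells, neurons and striated muscle use other isoforms of the same families, which can reach an aorta preparation with the cells that surround the vessel.

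The array oligos of 4 genes carry most of what follows, and they are printed from the deposited files because probes of a gene did not always give the same ratio. All positions are in the mm7 build that the array design used. Oligos that cross a splice junction are given whole and the others by their first 30 bases, all 5′ to 3′ in lower case with no part marked.
Trpm2 probe, chr10:77564108-77564167, minus strand: ctgtcatggcttctaagaggaaagtacaat
Trpm4 probe 1, chr7:41479285-41479344, minus strand: caagcgacacaactggtggccttatcctca
Trpm4 probe 2, chr7:41480573-41480712, minus strand: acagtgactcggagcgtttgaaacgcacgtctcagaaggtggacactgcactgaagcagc
Ryr1 probe 1, chr7:25938215-25938913, minus strand: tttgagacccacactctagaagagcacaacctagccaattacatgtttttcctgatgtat
Ryr1 probe 2, chr7:25939244-25939950, minus strand: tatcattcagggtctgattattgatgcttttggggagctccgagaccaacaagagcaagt
Ryr1 probe 3, chr7:25957062-25957121, minus strand: cgcctactccctagtgcatactctctctct
Cacna1s probe 1, chr1:136005651-136005710, plus strand: cacaaaggcctgatcggtgccagggtctgt
Cacna1s probe 2, chr1:135984897-135986865, plus strand: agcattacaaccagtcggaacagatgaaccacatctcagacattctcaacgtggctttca
Ryr1 probe 1 and Ryr1 probe 2 each span a stretch of genome longer than the oligo, so they read spliced RNA, and both lie on the 3′ side of Ryr1 probe 3. Ryr1 probe 3, in a continuous stretch of genome, starts 17818 bases from probe 2 and 18847 bases from probe 1, and the 2 Cacna1s probes start 20754 bases apart. Probes are numbered by signal, brightest first, and the brightest stands for the gene.

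Of the channel and pump genes, 1 of 55 was called (1.82%), against 0.902% of all features. This was Trpm2, which was higher in the Plk1(+/-) samples; 0.0361% of all features were called higher and 0.866% lower. At an unadjusted p under 0.05 there were 17 of 55 (30.9%, against 18.9% of all features). These divided into 6 higher (10.9%, against 9.15%) and 11 lower (20.0%, against 9.77%). Trpm1, among the 6 higher, passed the filter through Cy5 only, and 5 were higher with a filter asking for signal on all 3 arrays. A further view that uses no p-value counted the genes above the pool in every sample: 12 (21.8%, against 26.3%) were higher on all 3 arrays and 14 (25.5%, against 19.1%) were lower. The median of the 55 means was 0.03, beside 0.04 for all features. Of the 55 genes, 46 were well above background in both dyes on each array, and 6 in Cy3 on none, so that the ratios of these 6 are bounds. By sample the medians of the 55 genes were 0.04, -0.02 and -0.01, beside 0.03, 0.01 and 0.04 for all features.

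**Figure D1:**
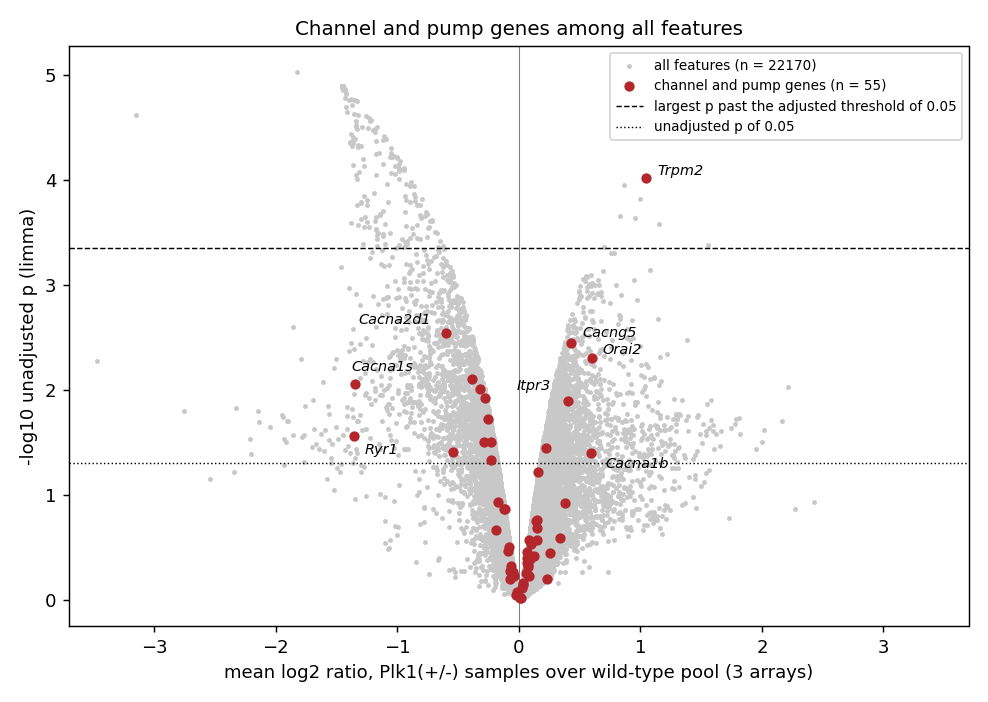
Mean log2 ratio of Plk1(+/-) samples over the wild-type pool (horizontal) against -log10 of the unadjusted limma p (vertical), for 22170 features in grey and the 55 channel and pump genes in red. Trpm2, at 1.05, is the red point above the dashed line that marks the adjusted threshold; the dotted line marks an unadjusted p of 0.05, which 17 of the red points pass.

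The arrays as a whole set the frame for these values. Of the 200 called features, 171 were on probes with a saturated spot, and no channel or pump probe had one. The spots well above background made up 66.0% to 69.0% in Cy3 and 77.0% to 80.8% in Cy5. Markers of the vessel wall were present: all 10 smooth muscle markers and all 8 endothelial markers were tested. The samples differed in cell type markers, given as medians of unsaturated markers for samples 1, 2 and 3. T and B lymphocyte markers stood at 0.14, 1.50 and 1.83, smooth muscle markers at -0.27, -1.13 and -1.20, skeletal muscle markers at -0.75, -0.99 and -3.06, heart muscle markers at -1.87, 0.20 and -2.06, and neuron markers at 1.54, 0.66 and -0.32. The smooth muscle markers differed in their lowest sample. Myocd, Myh11 and Lmod1 were lowest in sample 2, at -1.68, -1.94 and -1.73. Des, Ldb3 and Synpo2 were lowest in sample 3, at -1.40, -1.29 and -1.89, and Smtn read -0.47 in sample 2 and -0.48 in sample 3. In bulk RNA, fewer cells of a type and less RNA per cell cannot be told apart. Plk1 itself read -0.06, -0.08 and 0.42 (mean 0.10 ± 0.28, limma adjusted p = 0.706). The labels do not place its probe relative to the altered stretch of the gene, so this reading checks nothing about the genotype.

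**Figure D2:**
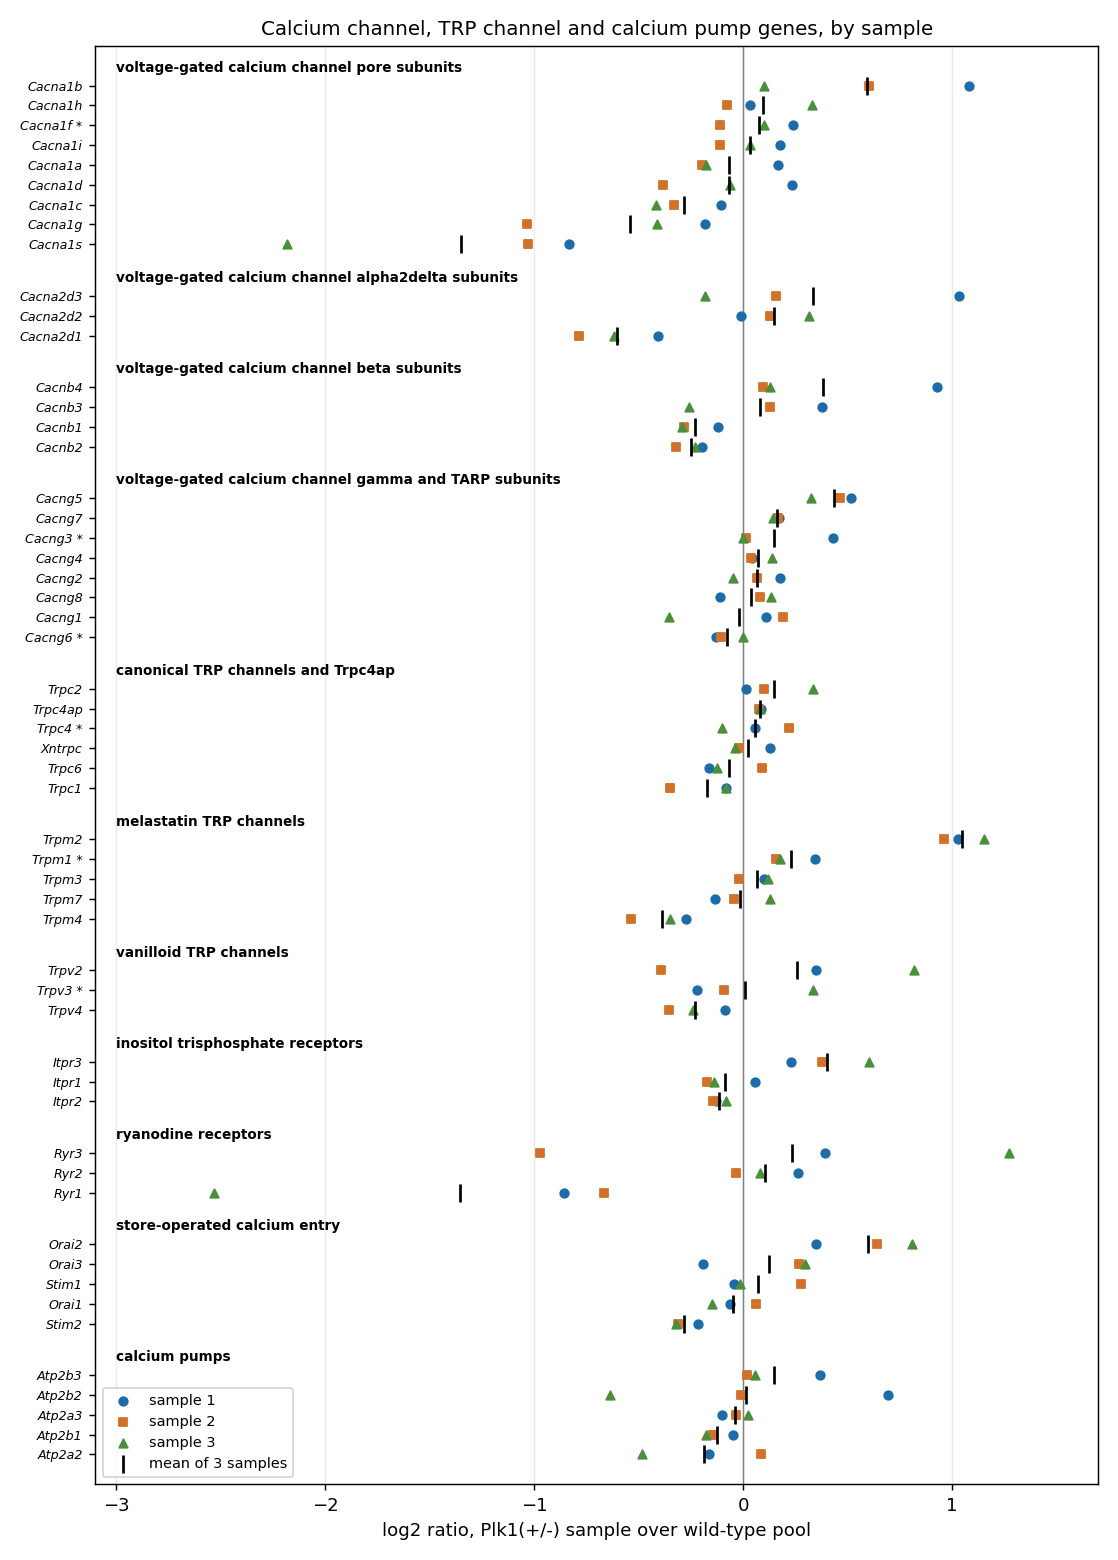
Log2 ratio over the wild-type pool of the tested genes reported here in samples 1, 2 and 3 (coloured symbols), with the mean of 3 samples as a black bar, grouped by role; an asterisk marks a gene whose Cy3 signal was above background on no array. Trpm2 lies near 1 in each sample, while Ryr1 and Cacna1s lie far below 0 in sample 3, at -2.53 and -2.18.

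The melastatin TRP channels held the gene that was called. Trpm2 encodes a calcium-permeable cation channel opened by ADP-ribose and oxidative stress, best known from phagocytes and other immune cells. Its mean signals were 213, 240 and 216 in the pool channel and 953, 1066 and 1129 in the Plk1(+/-) channel, before background correction and normalization. After both steps its log2 ratios were 1.03, 0.96 and 1.15. All 3 samples were above the pool with a range of 0.19 between them, for a mean of 1.05 ± 0.10, a fold of 2.07 (limma adjusted p = 0.0190, 95% interval 0.85 to 1.25). The gene had a single probe on the array, well above background in both dyes on each array, so no second probe bears on the value. The call ended when any 1 sample was left out, with adjusted p of 0.0601, 0.222 and 0.104 without samples 1, 2 and 3. It also ended when saturated probes of other genes were left out of the fit (0.224), and over all settings tried the adjusted p ran from 0.0138 to 0.224 while the mean stayed between 0.99 and 1.30.

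Markers of the immune cells that Trpm2 is best known from were read beside it. All 12 lymphocyte markers were tested, 10 of them were above the pool in each sample, and their summed mean signal was 4004 to 4471 in Cy3 and 10830, 30563 and 48923 in Cy5. In sample 1 the lymphocyte marker median was 0.14, the neuron marker median 1.54 and the Trpm2 ratio 1.03. Markers of macrophages had 9 of 9 tested and 8 unsaturated. Those 8 had medians of 0.03, -0.19 and 0.14, and their summed signals were 8302 to 9779 in Cy3 and 22217 to 24081 in Cy5. The macrophage medians, near 0, and Trpm2, near 1 with a range of 0.19, had the same order of samples. Among the single markers, C1qb and Cd68 shared this order and the others did not. Mrc1, Csf1r and C1qa were lowest in sample 1, Adgre1 and Fcgr1 were highest in sample 1, and Cd163 was lowest in sample 3. Neutrophil markers, with 6 of 6 tested, had medians of -0.10, -0.02 and -0.18. The part of other cell types in the Trpm2 ratio was not tested.

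The other melastatin channels were not called. Trpm4, a calcium-activated channel that passes monovalent cations and depolarises arterial smooth muscle, read -0.28, -0.54 and -0.35. Its mean of -0.39 ± 0.13 did not pass after adjustment (limma adjusted p = 0.174), and its second probe, printed above, read -0.27, -0.28 and -0.22. Both Trpm4 probes were below the pool in each sample. Trpm7, the ubiquitous channel with a kinase domain, read -0.14, -0.05 and 0.13, on both sides of 0. Trpm1, the channel of retinal bipolar cells, was above background in Cy5 on 2 arrays and in Cy3 on none. It passed the filter through Cy5 only, so no fold or direction is given for it. Its fitted mean was 0.23 with loess (limma adjusted p = 0.242) and -0.41 with median centring. Trpm5, Trpm6 and Trpm8 had no probe above background in either dye on any array and were not tested.

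Among the pore-forming subunits of voltage-gated channels, 9 of 10 genes were tested, none was called, and the means ran from -1.35 to 0.59. Cacna1c encodes the L-type pore that carries most calcium entry in arterial smooth muscle. It read -0.10, -0.33 and -0.42 on its brightest probe (mean -0.28 ± 0.16, limma adjusted p = 0.232). The other probe, 301 bases away, read -0.28, -0.51 and -0.16, so all 6 readings were below the pool. Both probes were dim, with mean signals in Cy3 of 139 to 158 on the brightest and 143 to 154 on the other. The T-type pore gene Cacna1g read -0.18, -1.03 and -0.41, with sample 2 lowest (mean -0.54 ± 0.44, adjusted p = 0.247 by limma). Its second probe was above background in Cy3 on no array and gives no exact ratio. Cacna1h, the other T-type pore of vessels, read 0.03, -0.08 and 0.33, and Cacna1d, a second L-type pore, read 0.23, -0.38 and -0.06. For both, samples lay on either side of the pool, and the Cy3 signal of Cacna1d was above background on 2 arrays only. The second Cacna1h probe read -0.02, -0.23 and -0.39, below the pool in each sample. The pore gene Cacna1e, of neurons, was above background in neither dye on any array and was not tested.

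Cacna1s, the L-type pore that senses voltage in skeletal muscle, had the lowest mean of this group. It read -0.84, -1.03 and -2.18 (mean -1.35 ± 0.73, limma adjusted p = 0.177). Sample 3 was well below the other two, and the median of the 8 unsaturated skeletal muscle markers was lowest in the same sample. The second Cacna1s probe, 20754 bases away, read -0.02, -0.14 and -0.12, near the pool in each sample. Its mean signal was 111 to 115 in Cy3 and 175 to 188 in Cy5, well above background but low. Which of the probes reads the level of the full transcript was not tested.

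Cacna1b, the N-type pore of nerve terminals, went the other way. It read 1.08, 0.60 and 0.10 (mean 0.59 ± 0.49, limma adjusted p = 0.248), highest in sample 1 and near the pool in sample 3. A second probe gave 0.39, 0.18 and 0.07, in the same order of samples. Both probes were well above background in both dyes on each array but dim. Their mean signals in Cy3 were 137 to 144 on the brightest and 95 to 101 on the second. Neuron markers, with 10 of 10 tested, had medians in that order too (1.54, 0.66 and -0.32), and their summed mean signal was 9335 to 10486 in Cy3 and 76507, 41932 and 18401 in Cy5. The part of nerve tissue in the Cacna1b ratios was not tested.

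The auxiliary subunits set how much of the pore reaches the membrane and how it gates. Cacna2d1, the alpha2delta subunit found with Cacna1c in muscle and the target of gabapentin, read -0.41, -0.78 and -0.62. All 3 samples were below the pool, the mean was -0.60 ± 0.19 (a fold of 1.52 lower), and the adjusted p of 0.125 by limma was the lowest of the set after Trpm2 but missed the threshold (95% interval -0.87 to -0.34). Its second probe, 11792 bases away, read -0.25, -0.57 and -0.59. The 7 unsaturated smooth muscle markers were all below the pool in each sample, with sample 1 nearest to it, as for Cacna2d1; their summed mean signal was 31226 to 35391 in Cy3 and 55508, 31112 and 41033 in Cy5. The part of smooth muscle content was not tested.

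Of the 2 other alpha2delta genes tested, Cacna2d3, mostly of brain, read 1.03, 0.16 and -0.18, with sample 1 far above the other two. Cacna2d2 read -0.01, 0.13 and 0.32 on its brightest probe and 0.78, 0.21 and 0.11 on the next, so its probes ordered the samples in opposite ways. Cacna2d4 was not above background in either dye and was not tested.

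The beta subunits, which bind the pore inside the cell, had 4 of 4 genes tested and none called. Cacnb2, the beta subunit of heart and vessel, read -0.20, -0.32 and -0.23 (mean -0.25 ± 0.06, limma adjusted p = 0.205), and -0.19, -0.22 and -0.59 on its other probe, whose Cy3 signal was above background on 2 arrays. Cacnb1, the skeletal muscle form, read -0.12, -0.28 and -0.29 (mean -0.23 ± 0.10, limma adjusted p = 0.233). Each sample was below the pool for both genes. Cacnb4, a neuronal form, read 0.93, 0.09 and 0.13 on its brightest probe, and the next was also highest in sample 1, at 0.43. Cacnb3, found in neurons and smooth muscle, read 0.38, 0.13 and -0.26.

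The gamma subunits and the related proteins that accompany glutamate receptors (TARPs) were tested at all 8 genes, with means from -0.08 to 0.43. Cacng5 read 0.51, 0.46 and 0.32 (mean 0.43 ± 0.10, limma adjusted p = 0.135), above the pool in each sample. Its Cy3 signal was above background on 2 of the 3 arrays, so the size rests on a dim reference, and with the authors' series values in place of the scanner files it was called, at 0.87 (adjusted p = 0.0453 by limma). Cacng1, the gamma subunit of the skeletal muscle channel, read 0.11, 0.19 and -0.36, lowest in sample 3. Its mean signal was 105 to 109 in Cy3 and 205, 226 and 125 in Cy5. This is far dimmer than Cacna1s or Ryr1, so the sizes of their ratios cannot be compared.

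**Figure D3:**
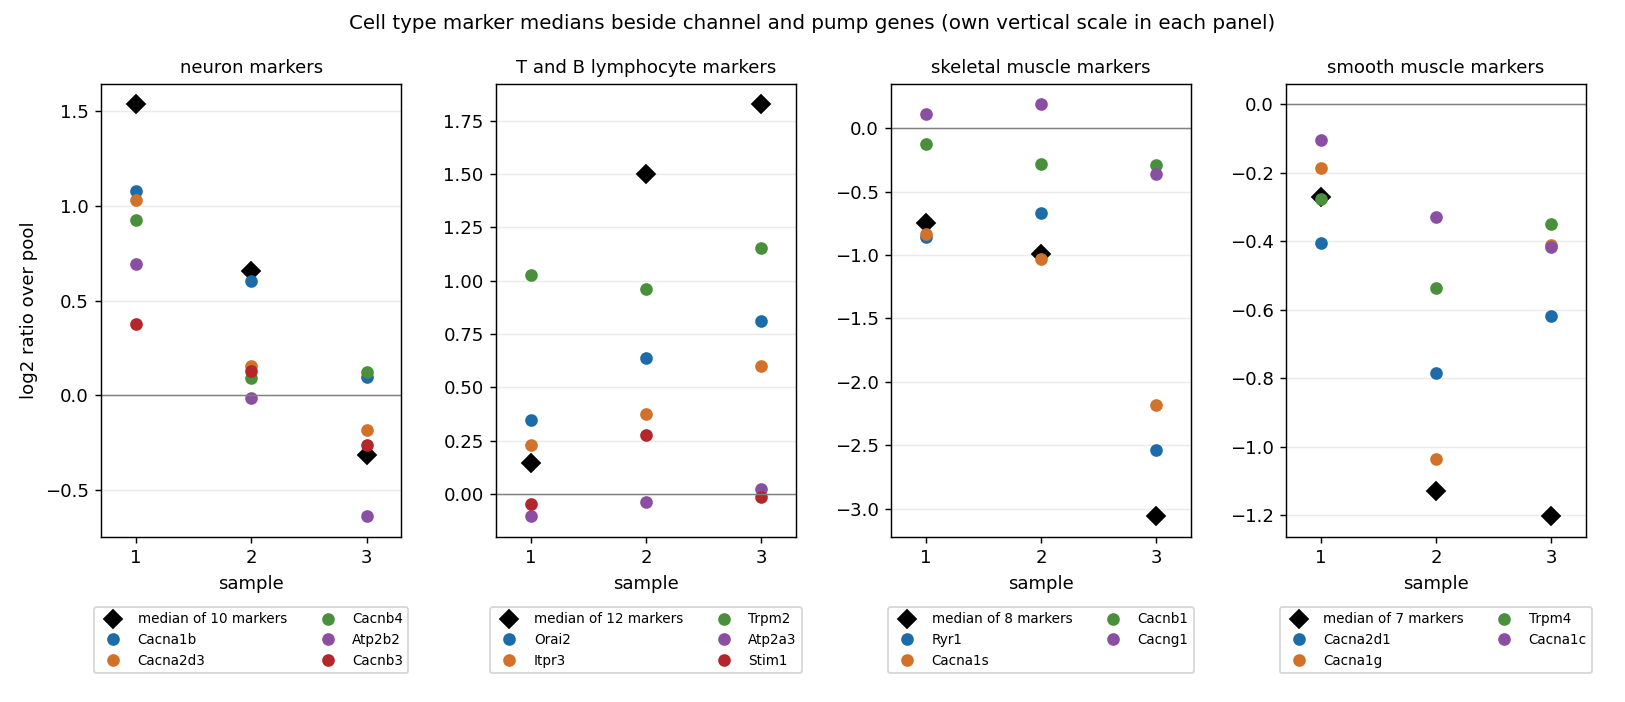
Log2 ratio over the wild-type pool of channel and pump genes (coloured points) beside the median of a cell type marker list (black diamonds) in samples 1, 2 and 3, for neurons, T and B lymphocytes, skeletal muscle and smooth muscle; each panel has its own vertical scale. Genes were picked, and placed by a cell type they are known from, after their values had been seen. Other genes known from these cell types are left out. Of these, Itpr1, Trpc6 and Orai1 lay on both sides of the pool, and Cacnb2 lay below it in each sample. Sample 1 is highest for the neuron markers (1.54) and for Cacna1b (1.08), and sample 3 is lowest for the skeletal muscle markers (-3.06) and for Ryr1 (-2.53).

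Canonical TRP channels are opened downstream of phospholipase C and were tested at 7 of 9 entries, and none was called. Trpc6, a diacylglycerol-gated channel of arterial smooth muscle, read -0.16, 0.09 and -0.13, on both sides of the pool. Trpc1 read -0.08, -0.35 and -0.08. Trpc4 was above background in Cy5 only, with readings on both sides of the pool, and no fold is given for it. Trpc5 and Trpc7 were above background in neither dye and were not tested. Trpc4ap, which the name rule takes in although it is an adaptor protein that binds TRPC4 and not a channel, read 0.09, 0.07 and 0.08. The means of its 5 kept probes ran from -0.11 to 0.17.

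The vanilloid channels tested were 3 of 5. Trpv4, a mechanically and chemically opened channel of endothelium and smooth muscle, read -0.09, -0.36 and -0.24 (mean -0.23 ± 0.13, limma adjusted p = 0.259), below the pool in each sample. Trpv2, found in macrophages, neurons and muscle, spread widely, at 0.35, -0.39 and 0.82, and its interval of -0.42 to 0.93 includes differences of either direction. Trpv5 and Trpv6, the channels of calcium-absorbing epithelia, were above background in neither dye.

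Calcium leaves the internal store through 2 kinds of release channel. All 3 inositol trisphosphate receptor genes were tested. Itpr1, the main form of vascular smooth muscle, read 0.06, -0.18 and -0.14, with a 95% interval of -0.30 to 0.13. Itpr2 read -0.13, -0.14 and -0.08 on its brightest probe, and the means of its 5 probes above background in both dyes on each array ran from -0.17 to -0.01. Itpr3 read 0.23, 0.38 and 0.60, above the pool in each sample (mean 0.40 ± 0.19, limma adjusted p = 0.190).

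Ryr1, the release channel that Cacna1s gates in skeletal muscle, read -0.86, -0.67 and -2.53 on probe 1 (mean -1.35 ± 1.03, limma adjusted p = 0.226). The next probe read -1.13, -0.88 and -2.89, with sample 3 again lowest. Ryr1 probe 3 did not share this: it read 0.14, 0.05 and 0.05, with signals of 268 to 274 in Cy3 and 623 to 655 in Cy5. Skeletal muscle markers had 10 of 10 tested and 8 unsaturated. Those 8 had a summed mean signal of 99004 to 129416 in Cy3 and of 165715, 165499 and 36791 in Cy5, so their lowest sample was also sample 3. The part of skeletal muscle beside the vessel in the Ryr1 and Cacna1s ratios was not tested.

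Ryr2, the cardiac form, read 0.26, -0.03 and 0.08, with Cy3 above background on 2 arrays. Its mean signal was only 93 to 95 in Cy3 and 156 to 165 in Cy5. So near background, a range such as that of the heart muscle marker medians, -1.87, 0.20 and -2.06, may not show in Ryr2. Ryr3 had the widest range between samples of the 55 genes, 2.24, at 0.39, -0.97 and 1.27. Its 4 kept probes, spread over as much as 334616 bases, had means from 0.02 to 0.36 and ordered the samples differently: the dimmest read -0.56, 0.72 and 0.91.

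**Figure D4:**
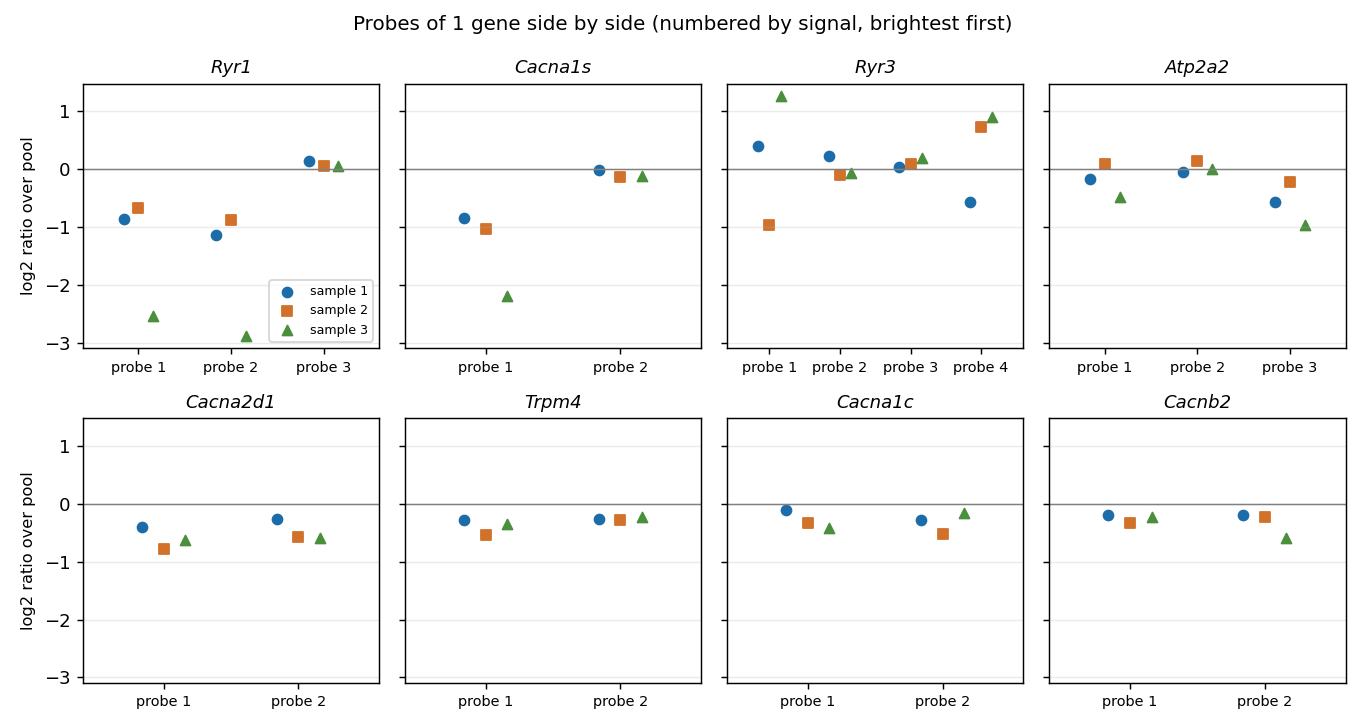
Log2 ratio over the wild-type pool in samples 1, 2 and 3 for each kept probe of 8 genes, probes numbered by signal with the brightest first. For Ryr1 and Cacna1s a distant probe stays near 0 (means of 0.08 and -0.09) while the brighter ones lie far below it, and for Cacna2d1, Trpm4, Cacna1c and Cacnb2 every probe reads below 0 in each sample.

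Store-operated entry pairs a calcium sensor in the store (STIM) with a pore in the plasma membrane (ORAI), and all 5 genes were tested. Orai2, a pore subunit found in immune cells and brain, read 0.35, 0.64 and 0.81, above the pool in each sample, with a mean of 0.60 ± 0.23 and a fold of 1.51 (limma adjusted p = 0.152). Orai1, the pore subunit that carries most store-operated current in lymphocytes, read -0.06, 0.06 and -0.15, and Orai3 read -0.19, 0.27 and 0.30. Orai2 and Itpr3 both had their lowest value in sample 1 and their highest in sample 3, the order of the lymphocyte marker medians given above; the part of lymphocytes in either was not tested. Stim2, the sensor of small drops in store calcium, read -0.22, -0.31 and -0.32 (mean -0.28 ± 0.06, limma adjusted p = 0.188), below the pool in each sample; its second probe was above background in Cy3 on 1 array only. Stim1, the main sensor, read -0.05, 0.27 and -0.01.

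None of the 5 calcium pump genes tested had an unadjusted p under 0.05. Atp2a2, which encodes the SERCA pump of smooth muscle and heart, read -0.16, 0.08 and -0.48, with samples on both sides of the pool. Its other probes had means of 0.03 and -0.58, and the last of these was below the pool in each sample (-0.57, -0.22 and -0.96). Atp2a3, the SERCA form of endothelium and blood cells, read -0.10, -0.04 and 0.02, with an interval of -0.22 to 0.15. Atp2b1, the PMCA pump of most tissues, read -0.05, -0.15 and -0.18 on its brightest probe, and the means of its 4 kept probes ran from -0.13 to 0.17. Atp2b2, the form of neurons and hair cells, spread from 0.69 in sample 1 through -0.01 to -0.64 in sample 3, the same order of samples as the neuron markers. Atp2b3, also neuronal, read 0.37, 0.02 and 0.06.

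Probes of 1 gene could be compared for 25 genes with a further kept probe. For 14 of these all kept probes had a mean of 1 sign and for 11 they did not, but several of these probes were above background in Cy3 on no array, so their ratios are not exact. Over probes well above background in both dyes on each array, 18 genes could be compared, and the means were of 1 sign for 11 and of both signs for 7. The largest spread between probe means was 1.71, for Ryr1, followed by 1.26 for Cacna1s and 0.62 for Atp2a2. Trpm4, Cacna1c, Cacnb2 and Cacna2d1, by contrast, had probe means within 0.14 of each other. Such closeness was not particular to these genes: among others, Itpr1, Trpc1 and Stim2 had spreads of 0.09, 0.10 and 0.11.

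Proteins that act with these channels, from calcium buffers to calmodulin targets, were taken from a list of 70 genes, of which 67 were tested. Of these, 1 was called (1.49%, against 0.902% of all features); 27 had an unadjusted p under 0.05, 8 of them higher (11.9%, against 9.15%) and 19 lower (28.4%, against 9.77%). The called gene was Vdac1, the channel of the outer mitochondrial membrane, at -0.66, -0.67 and -0.62 (mean -0.65 ± 0.03, limma adjusted p = 0.0451). Its probe had saturated spots, and its brightest unsaturated probe gave a mean of 0.17, so no direction is given for it. The next partner genes by p, none past the adjusted threshold, read as follows. Pkd1, a large membrane protein related to TRP channels, had a mean of -0.64 ± 0.17. Ppp3r1, the regulatory subunit of calcineurin, had 0.84 ± 0.28, and the kinase gene Camk4 had 0.42 ± 0.01. Jph2, which holds the store against the plasma membrane in muscle, had -1.05 ± 0.45 and Rcan2, a calcineurin inhibitor, -1.07 ± 0.48. Both were lowest in sample 2, at -1.54 and -1.56. With the mean over kept probes in place of the brightest, Ppp3r1 stood at 0.34, Camk4 at 0.32, Jph2 at -0.88 and Rcan2 at -0.60.

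The scale of the ratios mattered for the smaller values. Median centring in place of loess moved the median of all features from 0.04 to 0.23 and called 44.1% of them, of which 73.1% were higher, against 8 of 200 with loess. The set then had 14 genes called higher and 4 lower, together 32.7% of the 55 genes against the 44.1% of all features. Trpm2 (1.30), Orai2 (0.78) and Itpr3 (0.85) stayed above the pool and Cacna2d1 (-0.27), Cacna1s (-0.93) and Ryr1 (-0.99) below it, whereas Stim2 (0.16), Trpv4 (0.13), Cacnb1 (0.02) and Itpr1 (0.40) moved to the other side.

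**Figure D5:**
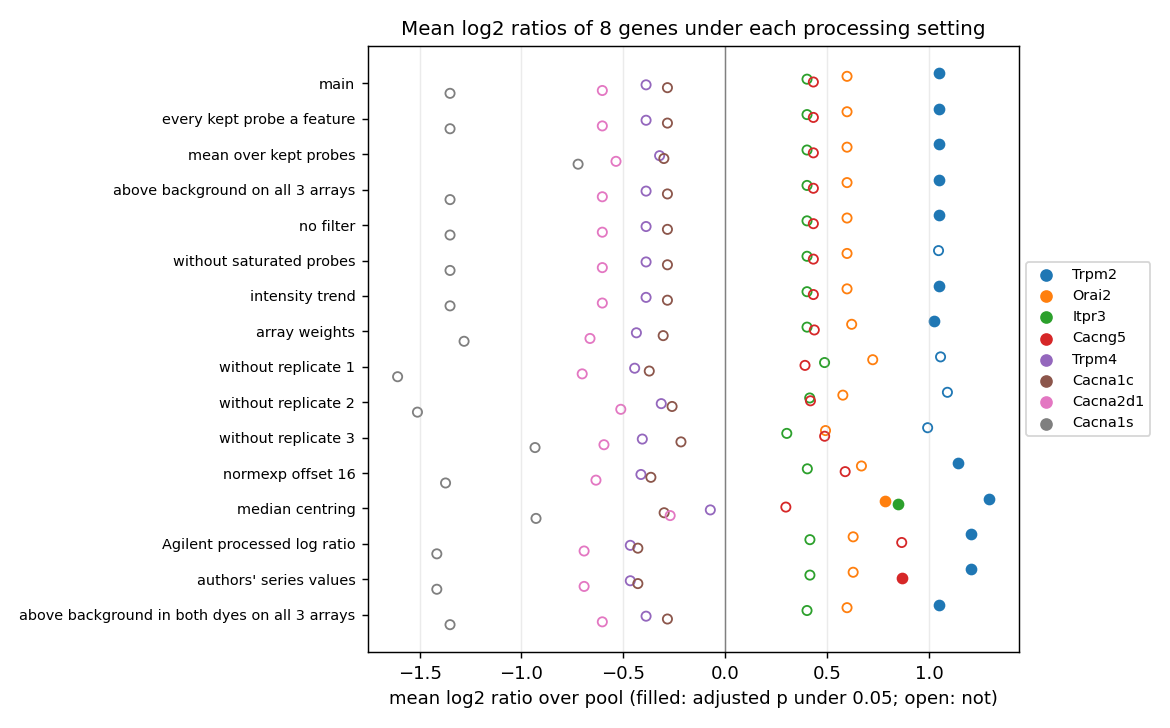
Mean log2 ratio over the wild-type pool of 8 genes (colours) under each processing setting (rows), with filled symbols for an adjusted p under 0.05 by limma and open ones otherwise; replicate numbers are sample numbers. Trpm2 stays between 0.99 and 1.30, filled except in the fits without a sample and without saturated probes, and the other genes keep their side of 0 while median centring moves Trpm4 to -0.07.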

How the data were processed

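Total RNA of aortas was amplified, labelled with Cy3 or Cy5 and, per the labels' protocols, read on Agilent arrays of 2 colours. The tissue label, aorta, was followed, although the growth protocol speaks of ES cells. The labels call the samples biological replicates, and no numbers pair them with members of the pool.

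Per the file headers, the authors' scanner files hold each spot's intensity from Agilent Feature Extraction, version 9.5.3.1. The mean signals taken from them had no background subtraction or normalization. The deposited log10 ratio of processed Cy5 over Cy3 is background-subtracted and dye-normalized, per the file headers. The authors' series values are log2 ratios with no stated centring; set against the scanner files' ratio turned to log2, their slopes were 0.997, 0.999 and 0.998 and their column medians -0.02, -0.0052 and -0.03, so scale and direction were known. Spike-in slopes of 0.793 to 0.823, per the file headers, say that ratios are compressed. Precision is limited by the 3 arrays.

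Background correction of mean signals used normexp with an offset of 50, and log2 ratios were loess-normalized within arrays (control spots at weight 0) in limma 3.58.1 (R 4.3.3 and its data.table package, version 1.17.8). Control and outlier spots were left out and spots of a probe averaged. Filter, brightest probe per gene and test are as given in the report. A ratio whose dim side was above background on no array is a bound, and no fold is given for it. The code was tested on simulated data. Probes were named through RefSeq accessions of a GRCm38.p6 listing (80 of the 129 probes), by a current symbol (47) or a synonym (2); positions are the files' own, and exons and UTRs were not analysed here.

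The members and gene lists were chosen with earlier results of these data known. Named were called genes, genes at an unadjusted p under 0.05 and a list of usual isoforms in vessel, striated muscle and immune cells. Also named were small role groups, some of the genes whose probes disagree, and the 6 partner genes of smallest p. Atp2b4, on that list, had no probe matched by name, and 1 tested gene is not reported here by name. Alternatives covered background correction, normalization, the filter, the probe rule, saturated probes, the variance model and leaving out each sample; a filter asking for both dyes on all 3 arrays was chosen after seeing the data.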

Additional observations from a re-analysis of the deposited data

How the results depend on the processing

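Of 697 comparisons of 47 named genes with an alternative setting, 637 kept their direction and side of the threshold, 12 lost a call, 10 gained one and 38 reversed direction; the cause was not tested except where stated. Genes called at an adjusted p under 0.05 by limma were 1 higher and 0 lower (17 at an unadjusted p under 0.05). The higher count was 2 of 49 with the authors' series values, where 170 of 19764 features were called in either direction. It was 0 without saturated probes, where 0 features were called. Median centring called 14 higher and 4 lower, together 32.7% of 55 against 44.1% of all features. Without 1 sample each the higher count was 0 to 0, with 9 to 16 genes at an unadjusted p under 0.05, and those lower numbered 4 to 11. Those lower were 18 with every kept probe as a feature, where more probes were tested. Those higher were 17 with median centring, where 27 of 55 passed in either direction, against 12711 of 22170 features. Called partner genes numbered 27 with median centring (40.3%, against 44.1% of all features). They numbered 0 without saturated probes, with the mean over kept probes and with offset 16. They also numbered 0 with the Agilent processed log ratio, with the authors' series values and, by range, 0 to 0 without 1 sample. All features called were 9767 with median centring, 120 with the Agilent processed log ratio, 0 without saturated probes (3836 at an unadjusted p under 0.05) and 0 to 174 without 1 sample.

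Reversed under median centring, which shifts the median of all features, were Atp2a2 (0.29), Atp2a3 (0.33), Atp2b1 (0.27), Cacnb1 (0.024), Itpr1 (0.40), Itpr2 (0.37), Orai1 (0.18), Ryr2 (-0.23), Stim2 (0.16), Trpc1 (0.043), Trpc4 (-0.31), Trpm1 (-0.41), Trpm7 (0.40) and Trpv4 (0.13). With the mean over kept probes these were Atp2b1 (0.023), Cacna1d (0.053), Cacna1h (-0.035) and Stim1 (-0.10), for Cacna1d and Stim1 through a probe above background in Cy3 on no array, and without saturated probes Vdac1 (0.17), for which another probe then stood. With array weights they were Atp2b2 (-0.023) and Ryr3 (-0.12), with offset 16 Atp2b2 (-0.014), and with the Agilent log ratio and the authors' series values alike Atp2b2 (-0.042), Cacna1h (-0.026) and Ryr2 (-0.064). Leaving out 1 sample each also reversed the sign of 10 genes, whose means then ranged from -0.32 to 0.34 for Atp2b2, -0.22 to 0.086 for Cacna1d, -0.022 to 0.18 for Cacna1h, -0.013 to 0.59 for Cacna2d3, -0.066 to 0.25 for Cacnb3, -0.29 to 0.83 for Ryr3, -0.029 to 0.13 for Stim1, -0.023 to 0.14 for Trpc4, -0.092 to 0.042 for Trpm7 and -0.023 to 0.58 for Trpv2. No paired analysis was possible because the pool is 1 control shared by all 3 arrays, so no replicate number is shared between groups. Genes near background in Cy3 have only bounds, and a distant probe that differs leaves the level of the full transcript unmeasured.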
